A study of Homo sapiens with 11 samples.

Results

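The genes described here are ATF4 and its partner stress transcription factors, a set of 7 members made up of ATF4, CEBPG, CEBPB, DDIT3, ATF3, ATF5 and TRIB3. Every probe set of the deposited table that was paired with 1 of these symbols and no other was taken, which gave 7 of 16383 probe sets and covered 6 members, among 8549 genes with a probe set of their own. ATF5 had 2 probe sets and the other 5 measured members had 1 each. TRIB3, a pseudokinase that ATF4 and DDIT3 switch on and that in turn restrains ATF4, had no probe set paired with it alone and is left out. The study exposed SCC9 cells, an established line of squamous carcinoma of the tongue, to nimesulide, a COX-2 inhibiting anti-inflammatory drug, to cisplatin, which forms platinum adducts on DNA, or to both, and measured total RNA on Affymetrix arrays. The groups were the combination of 100 µmol/L nimesulide with 0.5 µmol/L cisplatin (2 arrays, replicates A and B), 100 µmol/L nimesulide alone (3 arrays, A to C), 0.5 µmol/L cisplatin alone (3 arrays, A to C) and control cells handled alike without a compound (3 arrays, A to C). All groups were the same single cell line in medium with fetal bovine serum, the time of exposure was not given in the sources used here, and a combination array with the letter C was not analysed here. The labels speak of a triplicate and leave unsaid whether replicates were separate cultures, and p-values therefore measure the spread between these arrays, which may be technical.

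ATF4 is a basic leucine zipper (bZIP) protein at the end of the integrated stress response. When amino acids run short, unfolded proteins build up or haem is lacking, kinases phosphorylate the initiation factor eIF2, general translation slows, and the ATF4 message is translated more. ATF4 protein then pairs with C/EBP relatives such as CEBPG and CEBPB on composite C/EBP-ATF elements and switches on genes of amino acid uptake, amino acid synthesis and tRNA charging, and under lasting stress also DDIT3 (CHOP), ATF3 and TRIB3. Because the level of ATF4 protein is set to a large extent by translation, RNA measurements cover only a portion of its control.

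The values are log2 intensities, so a difference of 1 is a doubling. They spanned 2.53 to 13.4, with array medians between 5.37 and 5.43. Arrays of the same treatment correlated at 0.996 to 0.998 over all probe sets (10 pairs) and arrays of different treatments at 0.995 to 0.998 (45 pairs). Of the squamous markers CDH1 averaged 10.6, SFN 10.5, DSP 8.70 and KRT5 7.70, each above the median probe set, whereas KRT14 averaged 5.22 and was below it. None of 5 leukocyte and none of 4 endothelial markers was above the median probe set, and 2 of 7 fibroblast markers were (THY1 and DCN). The mean of the squamous markers per array was 8.55 to 8.57 with the combination, 8.34 to 8.63 with nimesulide, 8.45 to 8.81 with cisplatin and 8.38 to 8.66 in control cells.

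Nimesulide raised 1 of the 6 measured members, CEBPG, when its effect was taken over cells with and without cisplatin together. Of all 16383 probe sets, 25 (0.153%) passed the threshold in this comparison and 5 (0.0305%) rose. CEBPG passed it narrowly, and no longer did so when any 1 of 9 of the 11 arrays was left out. The CEBPG increase was 1.33-fold as the mean of the effects without and with cisplatin, fitted to 5 arrays with and 6 without the drug. CEBPB, a C/EBP relative of CEBPG, was also higher on every nimesulide array than on every array without the drug, as were 72 of all 16383 probe sets (0.439%). Its difference of 0.19 log2 units was not past the threshold. ATF4 itself was highest on the 2 combination arrays, as were 370 of all 16383 probe sets (2.26%), and near control with nimesulide alone. DDIT3, ATF3 and ATF5 overlapped between arrays with and without nimesulide and none passed the test. Cisplatin alone against control called no member and no other probe set (0.0%). The plot of levels by array shows the 7 probe sets.

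**Figure D1:**
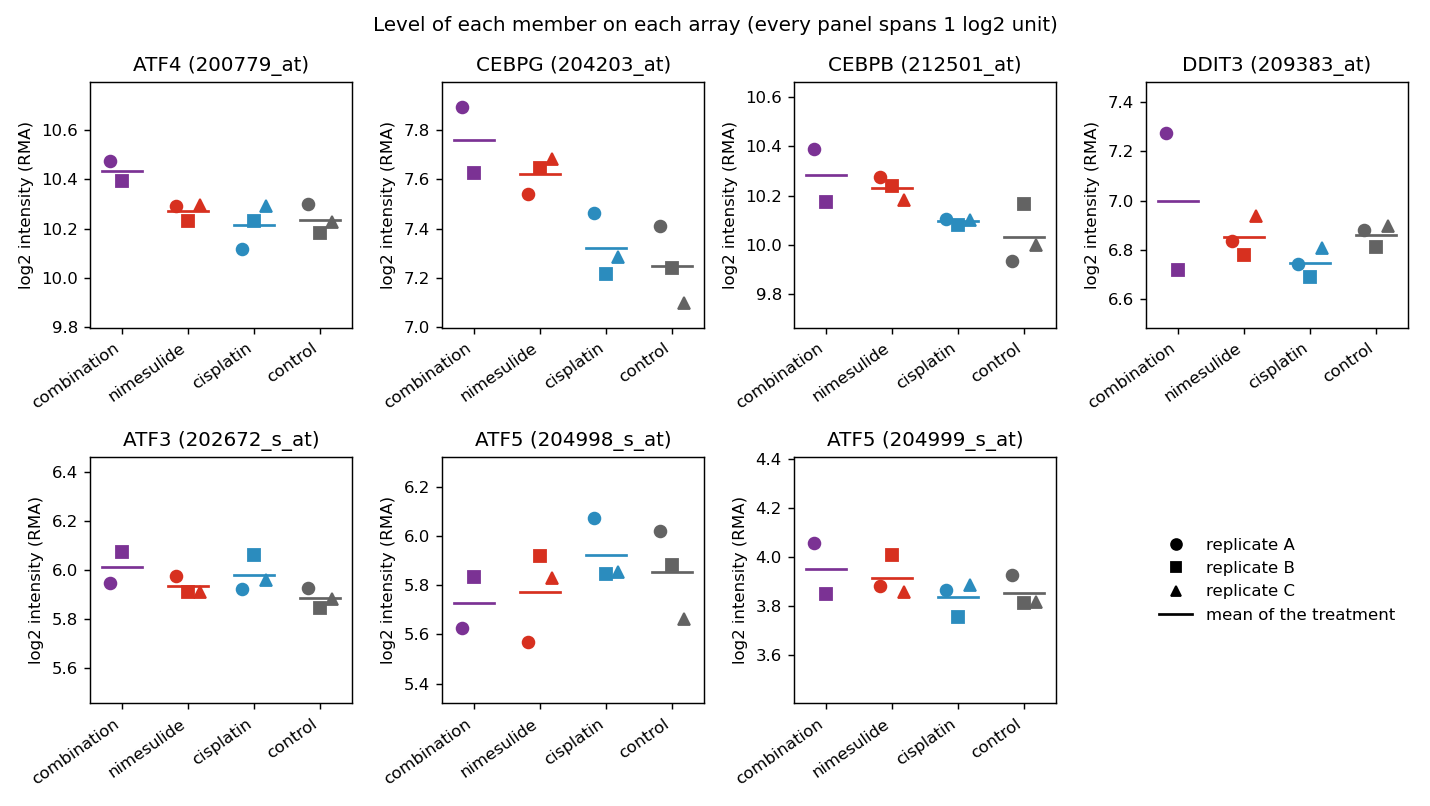
Deposited log2 intensity (vertical axis, every panel 1 log2 unit high) of the 7 probe sets on the 11 arrays, with combination, nimesulide, cisplatin and control from left to right, marker shapes for replicates A, B and C and a line at each treatment mean. CEBPG sits at 7.54 to 7.90 on the arrays with nimesulide, above 7.10 to 7.46 on the arrays without it, a separation found for 0.439% of all probe sets. Arrays with and without nimesulide overlap for DDIT3, ATF3 and ATF5.

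CEBPG encodes C/EBPγ, a short bZIP protein without an activation domain of its own that acts through its dimer partners, ATF4 among them. Its probe set, 204203_at, read 7.90 and 7.62 with the combination (A, B), 7.54, 7.65 and 7.68 with nimesulide (A, B, C), 7.46, 7.22 and 7.28 with cisplatin and 7.41, 7.24 and 7.10 in control cells. All 5 arrays with nimesulide were above all 6 arrays without it, the closest being nimesulide A and cisplatin A. The same was true of 72 of all 16383 probe sets (0.439%). The means were 7.76 ± 0.19 with the combination (SD, n = 2), 7.62 ± 0.07 with nimesulide (n = 3), 7.32 ± 0.13 with cisplatin (n = 3) and 7.25 ± 0.16 in control cells (n = 3). The order of the means was therefore combination, nimesulide, cisplatin, control. Combination and nimesulide, and cisplatin and control, differed by less than the larger SD of each pair, which for the first pair is that of the 2 combination arrays.

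For the test, limma was fitted to all 11 arrays with a mean per treatment, p-values of each comparison were corrected over its 16383 probe sets by the Benjamini-Hochberg method, and an adjusted p under 0.05 was a call. The pooled nimesulide effect is the mean of nimesulide against control and combination against cisplatin. CEBPG rose by 0.41 log2 units in the pooled effect (SE 0.07, 95% confidence interval 0.25 to 0.56, adjusted p = 0.0460), and it was higher with nimesulide in all 5 pairs of arrays that share a letter. This was 1 called member of 6, in a comparison that called 25 probe sets, 0.153% of those tested, of which 5 (0.0305%) rose. By size it was the 11th largest rise of all probe sets. In a bulk extract, more RNA per cell and more cells that carry it cannot be told apart.

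The call lies close to the threshold. It held without control A (adjusted p = 0.0236) and without cisplatin A (adjusted p = 0.0261). It was lost without any 1 of the other 9 arrays, where the change was 0.34 to 0.47 log2 units and the adjusted p 0.0579 to 0.299, the highest value without combination A.

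Each comparison on its own gave the same direction for CEBPG without a call. With nimesulide against control the change was 0.37 (SE 0.10, interval 0.17 to 0.58, adjusted p = 0.641), in a comparison that called 1 probe set (0.0061%, none of them a rise, 0.0%). With the combination against cisplatin it was 0.44 (SE 0.11, interval 0.21 to 0.67, adjusted p = 0.414), where limma called no probe set (0.0%) and 1162 had an unadjusted p under 0.05. With the combination against control it was 0.51 (SE 0.11, interval 0.28 to 0.74, adjusted p = 0.246), again with no probe set called (0.0%). With cisplatin against control it was 0.07 (SE 0.10, interval -0.14 to 0.28, adjusted p = 0.978), and this comparison called nothing either (0.0%). These counts depend on the fit. With the replicate letter added to it as a block, limma called 37 probe sets for nimesulide against control and 37 for the combination against cisplatin. It called 33 for the combination against control, and CEBPG was in none of these counts. In the pooled effect the block called 86, CEBPG among them. Between arrays of the same letter, nimesulide minus control was 0.13, 0.41 and 0.58 for A, B and C, and combination minus cisplatin was 0.43 and 0.41 for A and B. The smallest of the 5 differences was that of nimesulide A against control A, the control array with the highest CEBPG level.

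**Figure D2:**
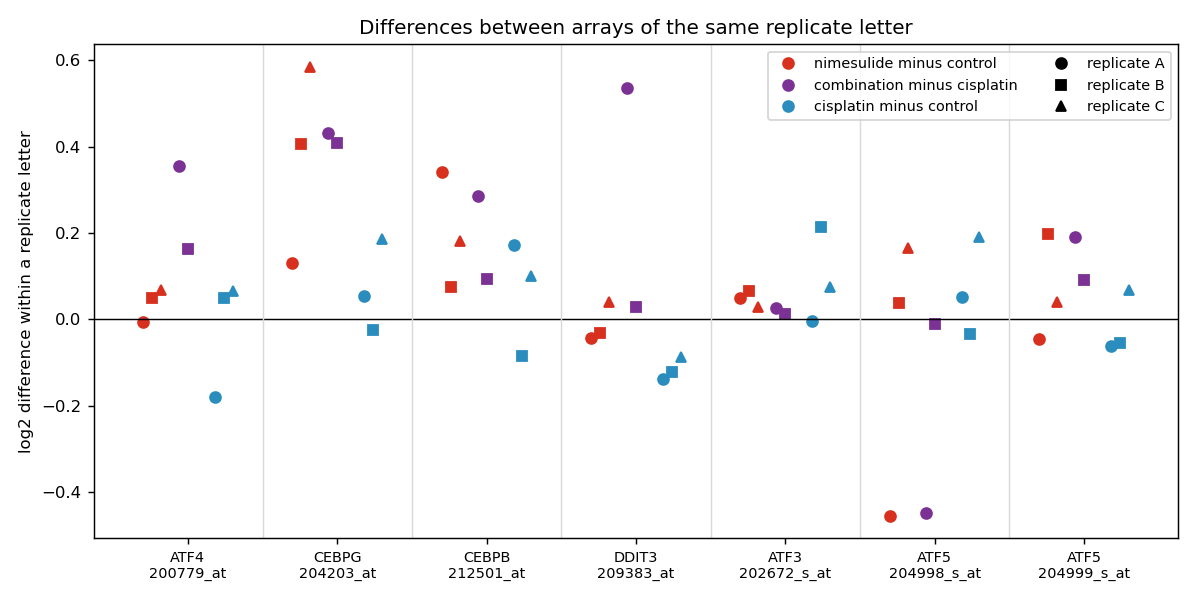
Difference in log2 intensity (vertical axis) between arrays of the same replicate letter for each probe set, with colours for nimesulide minus control, combination minus cisplatin and cisplatin minus control and shapes for the letters. CEBPG, CEBPB and ATF3 lie above 0 in all 5 differences with against without nimesulide, ATF3 by 0.01 to 0.07 log2 units, and the largest difference of DDIT3 is the single value of 0.54 for combination A minus cisplatin A.

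CEBPG and ATF3 were the 2 members with the core of the C/EBP-ATF element in a RefSeq promoter, and the CEBPG promoter is printed to show where these letters lie relative to the start of the gene whose RNA rose. Promoters of 300 bases (250 before to 50 after each annotated start, RefSeq, GRCh38.p14) were found for all 7 members, in 16 windows. They were searched on both strands for TGATGNAA, the core of the element, for TGACGTCA, the cAMP response element, and for CCAAT. TGATGNAA was present in 3.62% of all 35116 promoters, TGACGTCA in 1.85% and CCAAT in 34.6%. Counted by gene, as the members are here, the shares were 4.46%, 2.25% and 39.7% of 27305 genes. In the second CEBPG promoter the match, in capitals, begins at position -42 from the start and overlaps no match of the other motifs.
CEBPG promoter (chr19:33373863-33374162, plus strand): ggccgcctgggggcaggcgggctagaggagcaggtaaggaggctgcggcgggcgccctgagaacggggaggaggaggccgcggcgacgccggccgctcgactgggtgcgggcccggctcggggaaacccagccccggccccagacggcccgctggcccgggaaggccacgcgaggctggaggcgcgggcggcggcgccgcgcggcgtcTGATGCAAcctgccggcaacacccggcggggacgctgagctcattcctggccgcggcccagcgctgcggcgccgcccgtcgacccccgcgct
The ATF3 promoter and those of 11 measured ATF4 target genes also held TGATGNAA. The next stretches carry the match in capitals with 15 bases on either side, for ATF3 and for 2 target genes with roles in amino acid supply, namely ASNS and the arginine transporter SLC7A1.
ATF3 (chr1:212565201-212565238, plus strand): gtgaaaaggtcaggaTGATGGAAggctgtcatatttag
ASNS (chr7:97872454-97872491, minus strand): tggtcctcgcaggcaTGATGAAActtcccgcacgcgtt
SLC7A1 (chr13:29595659-29595696, minus strand): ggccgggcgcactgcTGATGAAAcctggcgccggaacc
No member promoter held TGACGTCA, and CCAAT was found in those of DDIT3, ATF3, CEBPG and CEBPB. These matches describe letters in a window and say nothing about binding in these cells.

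CEBPB encodes C/EBPβ, a bZIP activator of inflammatory and stress genes and a dimer partner of ATF4. Its probe set, 212501_at, read 10.39 and 10.17 with the combination, 10.28, 10.24 and 10.18 with nimesulide, 10.11, 10.08 and 10.10 with cisplatin and 9.93, 10.17 and 10.00 in control cells. The 5 arrays with nimesulide were again above the 6 without it, though combination B and control B differed by less than 0.01 log2 units. Such a separation was found for 2 of the 7 member probe sets, CEBPG and CEBPB, and for 72 of all 16383 (0.439%). The means were 10.28 ± 0.15 with the combination (SD, n = 2), 10.23 ± 0.05 with nimesulide (n = 3), 10.10 ± 0.01 with cisplatin (n = 3) and 10.03 ± 0.12 in control cells (n = 3), the same order as for CEBPG. Combination and nimesulide, and cisplatin and control, differed by less than the larger of their SDs.

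The pooled nimesulide effect on CEBPB was 0.19 log2 units (SE 0.06, interval 0.07 to 0.32), with an unadjusted p of 0.00453 and an adjusted p of 0.382 in limma. Nimesulide against control gave 0.20 (SE 0.08, adjusted p = 0.906) and the combination against cisplatin 0.19 (SE 0.08, adjusted p = 0.692). All 5 differences within a letter were positive, at 0.34, 0.08 and 0.18 for nimesulide minus control and 0.29 and 0.09 for combination minus cisplatin. Differences above 0 in all 5 pairs were found for 3 member probe sets, those of CEBPG, CEBPB and ATF3, and for 730 of all probe sets (4.46%).

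ATF4, the factor after which the set is named, was read by 200779_at at 10.47 and 10.39 with the combination, 10.29, 10.23 and 10.30 with nimesulide, 10.12, 10.23 and 10.29 with cisplatin and 10.30, 10.18 and 10.23 in control cells. Both combination arrays were above the other 9, which is true of 1 of the 7 member probe sets and of 370 of all probe sets (2.26%), while the nimesulide, cisplatin and control arrays overlapped. The means were 10.43 ± 0.06 with the combination (SD, n = 2), 10.27 ± 0.04 with nimesulide, 10.21 ± 0.09 with cisplatin and 10.24 ± 0.06 in control cells (n = 3 each). Between nimesulide, cisplatin and control, the means differed by less than the larger SD of each pair.

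With nimesulide alone against control the ATF4 change was 0.04 log2 units (SE 0.07, interval -0.11 to 0.18, adjusted p = 0.981). With the combination it was 0.22 against cisplatin (SE 0.07, interval 0.06 to 0.38, adjusted p = 0.580) and 0.20 against control (SE 0.07, interval 0.04 to 0.36, adjusted p = 0.533), neither a call. The difference between the nimesulide effects with and without cisplatin, the interaction, was 0.18 (SE 0.10, interval -0.03 to 0.40, adjusted p = 0.963). The interaction called none of the probe sets tested (0.0%), with 748 at an unadjusted p under 0.05, so a dependence of the ATF4 change on cisplatin was not shown. Within letters, combination minus cisplatin was 0.35 and 0.16, combination minus control 0.17 and 0.21, and nimesulide minus control -0.01, 0.05 and 0.07.

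DDIT3 encodes CHOP, a C/EBP relative that ATF4 switches on and that drives cell death genes under lasting stress. Its probe set, 209383_at, read 7.28 and 6.72 with the combination, 6.84, 6.78 and 6.94 with nimesulide, 6.74, 6.69 and 6.81 with cisplatin and 6.88, 6.81 and 6.90 in control cells. Combination A was the highest array and combination B the second lowest, above cisplatin B alone, so the combination overlapped every other group. The means were 6.998 ± 0.394 with the combination (SD, n = 2), 6.85 ± 0.08 with nimesulide, 6.75 ± 0.06 with cisplatin and 6.86 ± 0.05 in control cells (n = 3 each). The change was 0.25 log2 units for the combination against cisplatin (SE 0.12, interval -0.01 to 0.51, adjusted p = 0.708) and -0.01 for nimesulide against control (SE 0.11, interval -0.24 to 0.22, adjusted p = 0.997). Without combination A the combination against cisplatin gave -0.03, so the positive value rests on that array. The 3 cisplatin arrays were below the 3 control arrays, by less than 0.01 log2 units between the nearest. How many of all probe sets separate in this way was not counted. Cisplatin against control gave -0.12 (SE 0.11, interval -0.35 to 0.12, adjusted p = 0.968).

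Combination A was the highest of the 11 arrays for 5 of the 7 member probe sets, those of ATF4, CEBPG, CEBPB, DDIT3 and the dimmer one of ATF5. Over all probe sets it was the highest for 1518 (9.27%). Without it the combination against cisplatin gave 0.18 for ATF4 and 0.08 for CEBPB, in a fit that takes the lone combination array to vary like the other groups.

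ATF3, a bZIP factor induced by many stresses that represses as a homodimer, was read by 202672_s_at at 5.95 and 6.07 with the combination, 5.98, 5.91 and 5.91 with nimesulide, 5.92, 6.06 and 5.96 with cisplatin and 5.93, 5.85 and 5.88 in control cells. Arrays with and without nimesulide overlapped. Both combination arrays were above the 3 control arrays, and how many of all probe sets do so was not counted. In limma the combination against control gave 0.13 (SE 0.07, adjusted p = 0.706), which was not a call. The means were 6.01 ± 0.09 with the combination (SD, n = 2), 5.93 ± 0.04 with nimesulide, 5.98 ± 0.07 with cisplatin and 5.89 ± 0.04 in control cells (n = 3 each). The pooled nimesulide effect was 0.04 log2 units (SE 0.05, interval -0.06 to 0.14, adjusted p = 0.906), and cisplatin against control gave 0.09 (SE 0.06, adjusted p = 0.968). The 5 differences with against without nimesulide within letters were positive but small, at 0.05, 0.07 and 0.03 for nimesulide minus control and 0.03 and 0.01 for combination minus cisplatin.

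ATF5, a bZIP factor whose message is translated under stress in the same way as that of ATF4, had 2 probe sets that disagreed in direction. The brighter, 204998_s_at, read 5.62 and 5.83 with the combination, 5.57, 5.92 and 5.83 with nimesulide, 6.07, 5.85 and 5.85 with cisplatin and 6.02, 5.88 and 5.66 in control cells. The dimmer, 204999_s_at, stood between 3.76 and 4.06 on all 11 arrays, well below the array medians. Arrays with and without nimesulide overlapped on both. The pooled nimesulide effect was -0.14 log2 units on the brighter probe set (SE 0.08, interval -0.32 to 0.04, adjusted p = 0.746) and 0.09 on the dimmer (SE 0.06, interval -0.03 to 0.21, adjusted p = 0.757). The negative values of the brighter one came from letter A, where nimesulide minus control and combination minus cisplatin were both -0.45, against 0.04 and 0.17 for nimesulide minus control in B and C and -0.01 for combination minus cisplatin in B.

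**Figure D3:**
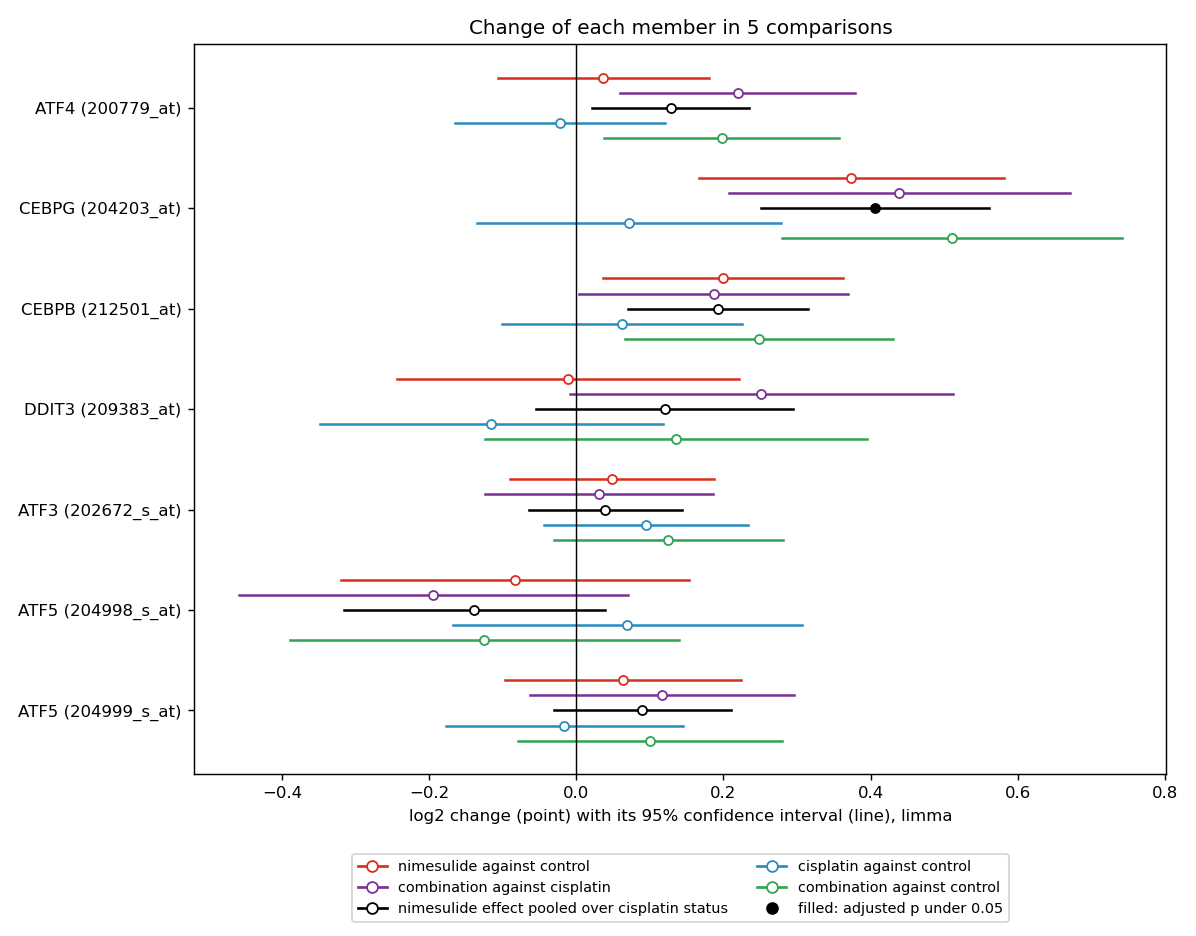
Change in log2 units (horizontal axis, point) with its 95% confidence interval from limma (line) of each probe set in 5 comparisons, a filled point marking an adjusted p under 0.05. The only filled point is the pooled nimesulide effect on CEBPG at 0.41, and all intervals of cisplatin against control include 0.

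At an unadjusted p under 0.05, 3 of the 7 member probe sets (CEBPG, CEBPB and ATF4) were higher in the pooled nimesulide effect, against 4.41% of all probe sets. The number was 2 for nimesulide against control (CEBPG and CEBPB, against 2.72% of all), 3 for the combination against cisplatin (4.03%) and 3 for the combination against control (3.47%). None was past this level in cisplatin against control, where 1.47% of all probe sets were higher, or in the interaction (2.3%). No member probe set was lower at this level in any of these comparisons. Nimesulide against control and the combination against control share the control arrays, and the pooled effect is made of 2 of the others, so these counts are not independent of each other. Members were also chosen with earlier results of these data known, so setting the counts against the shares is no test of the set.

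Across the 11 arrays, the highest Pearson r between members were 0.751 for CEBPB and CEBPG, 0.643 for ATF4 and DDIT3 and 0.632 for ATF4 and CEBPG. The members did not all move together. ATF5, by its brighter probe set, had a negative r with every other member, from -0.518 with ATF4 to -0.118 with ATF3. ATF3 and DDIT3 had an r of -0.291. These values describe 11 arrays that share their treatments. All of them include combination A, the highest array for ATF4, CEBPG, CEBPB and DDIT3. Among 4271 other genes of at least median SD, the 3 most like CEBPG were ASNS, asparagine synthetase (r = 0.936), SLC20A1, a phosphate transporter (0.928), and PXDC1 (0.921). For CEBPB they were SLC7A1, an arginine transporter (0.925), LYPLA1 (0.864) and PGAM2 (0.861). For ATF4 they were LINC00963 (0.904), RAB33A (0.875) and EIF2S3, the gamma subunit of eIF2 (0.864). The genes most like DDIT3 were ADGRE2 (0.908), MMP17 (0.870) and MANBA (0.868), those most like ATF3 were TOP2A (0.918), RP2 (0.899) and NEK2 (0.886), and those most like ATF5 were TMEM158 (0.929), MSMB (0.904) and NUDT1 (0.870). All were picked as the highest of 4271 values over 11 arrays. The top r lay between 0.904 and 0.936 for every member, so a value of this size sets no single gene apart. Shared control of these genes was not tested.

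Most of the measured genes that ATF4 is known to switch on for amino acid supply were higher with nimesulide. The list was chosen with earlier results of these data known, so its counts and medians are a description and no test of a group effect. Of 34 listed, 26 were measured, and in the pooled effect 2 rose, none fell and 25 were higher, with a median change of 0.17 log2 units. Over all 8549 genes the median was -0.0032 and 48.3% were higher. The medians of the list were 0.13 for nimesulide against control (25 of 26 higher), 0.20 for the combination against cisplatin (26 of 26) and 0.00 for cisplatin against control (13 of 26). The pooled median lay between 0.13 and 0.19 when any 1 array was left out. Set against the control mean, the median gene of the list stood at 0.29 and 0.15 on the combination arrays, 0.17, 0.11 and 0.13 on the nimesulide arrays, 0.08, -0.05 and 0.02 on the cisplatin arrays and 0.05, -0.04 and -0.02 on the control arrays. Every array with nimesulide was thus above every array without it. This was not particular to the list. The stress and cell death targets described below also separated, at 0.08 to 0.13 with nimesulide and at most 0.07 without it. On the remaining lists the arrays overlapped. How often other gene sets of this size separate in this way was not computed.

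The 2 list genes that rose were SLC7A11 and ASNS. SLC7A11, the cystine importer of the xCT exchanger, read 7.16 and 7.06 with the combination, 7.02, 6.63 and 7.06 with nimesulide, 6.59, 6.40 and 6.35 with cisplatin and 6.46, 6.37 and 6.39 in control cells. Its pooled change was 0.58 log2 units (adjusted p = 0.00884), and a second, dimmer probe set of the gene gave 0.18 without a call (adjusted p = 0.511). ASNS, which makes asparagine, read 9.82 and 9.63 with the combination, 9.50, 9.46 and 9.73 with nimesulide, 9.30, 9.00 and 9.17 with cisplatin and 9.25, 9.08 and 9.17 in control cells, a pooled change of 0.48 (adjusted p = 0.0162). For both genes the arrays with nimesulide lay above those without it, as for 72 of all 16383 probe sets (0.439%). Both were called on these same arrays, so the separation adds no further support. The gene next in size was XPOT, the exporter of tRNA from the nucleus, at 0.35 (adjusted p = 0.121), and the smallest values were 0.08 for PYCR1, an enzyme of proline synthesis, and -0.0026 for CTH, an enzyme of cysteine synthesis.

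The 5 probe sets that rose in the pooled effect were those of SPRR1B, a cornified envelope protein (0.75), SLC7A11 (0.58), ASNS (0.48), VEGFA, an angiogenic growth factor (0.44, adjusted p = 0.0209), and CEBPG (0.41). SPRR1B and this VEGFA probe set are named because they are among the 5, after their values were seen. Of these genes SLC7A11, ASNS and VEGFA are on the lists of ATF4 targets, though the brightest VEGFA probe set gave 0.10 without a call.

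Among the 26 amino acid supply genes, 21 had a promoter in the RefSeq table and 11 of these held TGATGNAA. The pooled change had a median of 0.17 in the 11 genes with a match, at 0.10 to 0.48, and of 0.15 in the 10 genes without one, at -0.0026 to 0.35. The ranges overlapped, and the difference was not tested. Of all 27305 genes with a promoter, 4.46% held TGATGNAA in at least 1 of them.

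Targets of ATF4 and DDIT3 in stress and cell death were described in the same way. Of 30 listed, 20 were measured, none was called, 16 were higher and the pooled median was 0.09 log2 units. With nimesulide against control the median was 0.13, as for the amino acid supply genes, and the difference between the lists was not tested. The highest were STC2, a secreted glycoprotein hormone (0.44, adjusted p = 0.0633), SQSTM1, an autophagy receptor (0.27, adjusted p = 0.0706), and PPP1R15A, which directs eIF2 dephosphorylation (0.27, adjusted p = 0.493). The lowest were NUPR1 and the death receptor gene TNFRSF10B, both at -0.03. None of the 15 genes with a promoter in the table held TGATGNAA.

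In the pooled effect the medians of the other lists lay between -0.03 and 0.03 log2 units. Over all genes the median was -0.0032 and 48.3% were higher. For the eIF2 kinases and controls of eIF2, 9 of 16 measured genes were higher and the median was 0.01. PPP1R15A stood highest there, followed by the eIF2 subunit genes EIF2S3 (0.23) and EIF2S2 (0.13), and EIF2AK2, the kinase PKR, was lowest at -0.34 (adjusted p = 0.326). For the other bZIP factors 21 of 35 were higher with a median of 0.02, from -0.10 for NFE2L3 to 0.20 for NFIL3. For the ATF6 and XBP1 arms of the unfolded protein response, which act beside ATF4 on the chaperones of the endoplasmic reticulum, 8 of 21 were higher with a median of -0.03, from -0.13 for DNAJC3 to 0.14 for DNAJB9. For the immediate early genes 18 of 27 were higher with a median of 0.03, from -0.09 for JUNB to 0.17 for CCN1. By its brightest probe set, none of the genes on these 4 lists was called in any of the comparisons.

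**Figure D4:**
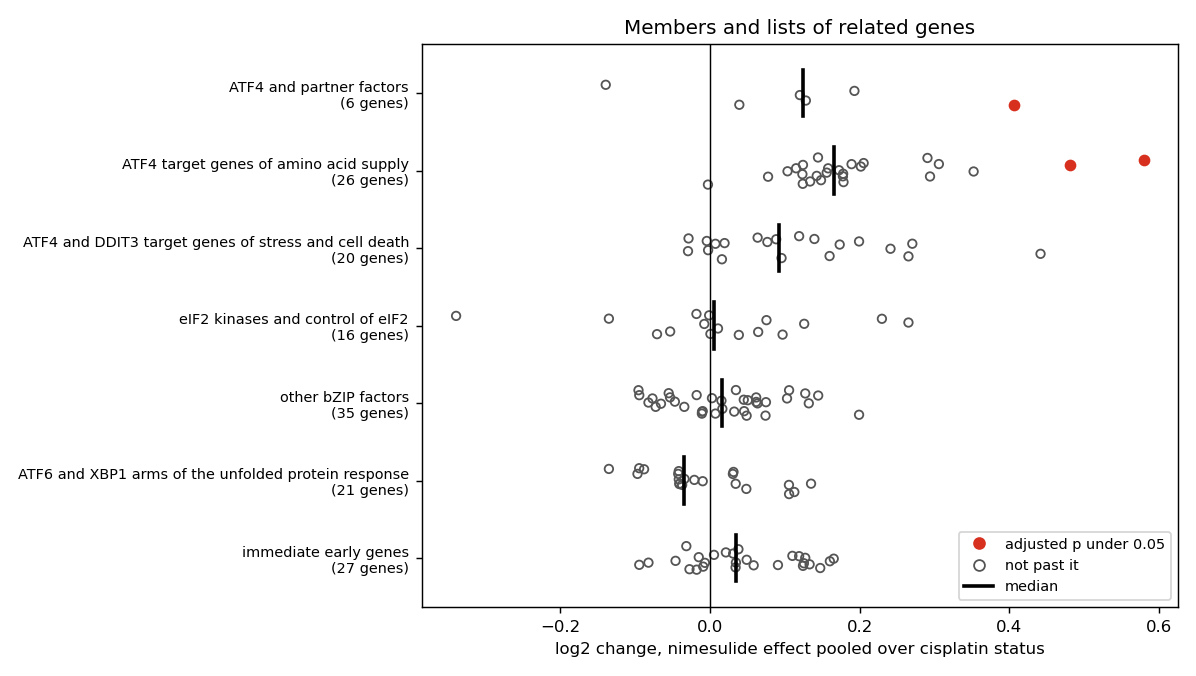
Pooled nimesulide effect in log2 units (horizontal axis) of each gene in ATF4 and its partner factors and in 6 lists of related genes, 1 point per gene by its brightest probe set, with filled points for an adjusted p under 0.05 and a bar at each median. The amino acid supply genes have the highest median at 0.17 with all genes but CTH above 0, and the chaperone and folding genes of the ATF6 and XBP1 arms have a median of -0.03.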

How the data were processed

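The authors summarised 11 arrays with RMA, per the submitters' processing notes, which corrects background, brings arrays to a common distribution and combines probes, so a shift of all transcripts would not show. The deposited table holds log2 intensities of 16383 probe sets, judged from their range. Its RMA version, and which arrays entered 1 normalisation, are not given in the sources used here. Symbols came from the platform's annotation (14045 probe sets with 1 symbol, 792 with several, 1546 with none), and a gene was represented by its probe set of highest mean.

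A mean per treatment was fitted with limma 3.58.1 in R 4.3.3 (lmFit, eBayes, 7 residual degrees of freedom), with two-sided tests in 6 contrasts and Benjamini-Hochberg adjustment over all probe sets. The code was tested on simulated data. The number of arrays limits the precision. The median SE over all probe sets was 0.06 log2 units for the pooled effect and 0.08 for nimesulide against control.

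All member probe sets were named. Of each gene list the 3 highest and 2 lowest pooled changes, and for each member the 3 genes of highest r, could be named. Members and lists were chosen with earlier results of these data known, and lists are described by counts and medians without a test. Alternatives were a replicate block, an intensity trend in eBayes, quantile normalization, a filter on dim probe sets, the other probe set of a member and leaving out each array. The block without 1 letter was added after seeing the data. Promoters came from RefSeq (GRCh38.p14).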

Additional observations from a re-analysis of the deposited data

How the results depend on the processing

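The pooled nimesulide effect called 1 member, CEBPG, as reported and with a replicate block (0.40 log2 units, adjusted p = 0.0131 in limma), an intensity trend (adjusted p = 0.0315) or a filter on dim probe sets (adjusted p = 0.0348). It called 0 members after quantile normalization (CEBPG 0.39, adjusted p = 0.0596) and with the block without letter B (0.41, adjusted p = 0.164) or C (0.34, adjusted p = 0.168), and 0 to 1 without single arrays. The letters were not used as pairs because the labels do not say what they mark and not every same-letter pair correlated above 0.1 in its deviations from the treatment means. The same-letter values lean towards pairing. Without the combination, 8 of 9 same-letter pairs were above 0.1 (0.0831 to 0.355), against 0 of 18 different-letter pairs (-0.251 to 0.0342). With the combination, 4 of 6 same-letter pairs were (0.0883 to 0.210), against 1 of 12 (-0.210 to 0.144). Deviations from a treatment mean add up to 0, so the different-letter values depend on the same-letter ones and are no separate evidence. Combination A and B deviate as mirror images, for example at 0.106 and -0.106 with control A, so there each same-letter value fixes a different-letter one. The block moved the count of calls over all probe sets to 86 against 25 for the pooled effect, 37 against 1 for nimesulide against control, 37 against 0 for the combination against cisplatin and 33 against 0 for the combination against control, and it changed no other member call. The pooled count was 36 with the trend, 24 after quantile normalization, 33 with the filter and 1 to 33 without single arrays.

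Signs turned only for differences that were not past the threshold. The other ATF5 probe set gave 0.063 for nimesulide against control, 0.12 for the combination against cisplatin, 0.090 pooled, -0.016 for cisplatin against control, 0.0998 for the combination against control and 0.053 for the interaction. The block without letter A gave ATF5 0.10 for nimesulide against control, 0.018 pooled and 0.013 for the combination against control, and DDIT3 0.0047 for nimesulide against control and -0.073 for the combination against control. The block without letter B gave ATF3 -0.0037 for the combination against cisplatin. Without single arrays, DDIT3 ran from -0.019 to 0.26 pooled, -0.054 to 0.025 for nimesulide against control, -0.027 to 0.53 for the combination against cisplatin, -0.14 to 0.41 for the combination against control and -0.016 to 0.54 for the interaction. ATF3 ran from -0.031 to 0.092 for the combination against cisplatin and -0.079 to 0.044 for the interaction, and ATF5 from -0.18 to 0.019 for nimesulide against control and -0.027 to 0.15 for cisplatin against control. ATF4 ran from -0.061 to 0.025 and CEBPG from -0.0041 to 0.15 for cisplatin against control, and for the interaction CEBPG ran from -0.071 to 0.20 and CEBPB from -0.12 to 0.10. The causes were not tested.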
